A study of Mus musculus with 12 samples.

Results

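The constitutive proteasome genes are those for the subunits, activators, inhibitor and assembly chaperones of the proteasome that most cells carry at all times. They were taken here as every gene whose symbol begins with Psma, Psmb, Psmc, Psmd, Psme, Psmf or Psmg, without the 3 interferon-induced immunoproteasome genes Psmb8, Psmb9 and Psmb10, and with a mean of at least 1 TPM over 6 libraries. The unit of the deposited values is not given, and they were read as TPM. TPM corrects a gene's reads for transcript length and then gives its part of all transcripts in that library. Of 50 genes with these prefixes, 44 met the rule, out of 21936 genes listed in all. The 3 genes that fell short were Psma8, the testis form of an alpha subunit, at a mean of 0.0512 TPM, Psmb11, the thymus form of a beta subunit, at 0.0109 TPM, and Psme2b at 0.541 TPM. Just inside the threshold stood Psmc3ip at 1.92 TPM, which carries the prefix of its binding partner but encodes a meiotic recombination factor and no part of the proteasome. The next lowest was Psmg3 at 5.97 TPM. All 44 genes are protein coding and lie on 16 chromosomes, and all were at 1 TPM or more in every library.

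The samples were skeletal muscle of C57BL/6N mice aged 3 months, either wild type or lacking PTRF, the caveolar coat protein encoded by Cavin1, and labelled by the submitters as normal or as having muscular dystrophy. The 12 samples carry the names of 2 muscles, soleus and quadriceps, but each quadriceps sample repeated the values of the soleus sample of the same genotype and number with a largest difference of 0 TPM. They were therefore counted as 6 libraries, 3 wild type and 3 knockout, and the muscle they came from is unknown. How the knockout was made, the sex of the mice and whether each library came from a separate animal are not given in the sources used here, so the p-values below measure the spread between these libraries, which may be technical. Cavin1 was at 45.2, 40.0 and 42.2 TPM in wild type, and the knockout libraries had 0.284, 0.0905 and 0.0254 TPM. In the fast-fibre myosin gene Myh4, wild-type library 2 stood apart from its group, at 194 TPM against 6.43 and 4.21 TPM, and the knockout libraries had 238, 580 and 346 TPM. Transcripts with the mitochondrial prefix took 43.0 to 52.3% of all TPM in wild type and 39.0 to 45.7% in the knockout, and the depth behind the values is unknown.

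The proteasome degrades proteins that carry ubiquitin chains. Its 20S core is a barrel of 2 outer rings of alpha subunits (Psma genes), which gate the entrance, and 2 inner rings of beta subunits (Psmb genes), some of which cut the substrate. The 19S regulatory particle caps the barrel: a ring of ATPases (Psmc genes) unfolds the substrate, and the non-ATPase subunits (Psmd genes) bind ubiquitin, remove it and form the scaffold and lid. Other caps are the PA28 activators (Psme1, Psme2 and Psme3) and PA200 (Psme4), the inhibitor PI31 is encoded by Psmf1, and dedicated chaperones (Psmg genes, Psmd5, Psmd9 and Psmd10) assemble core and cap. In skeletal muscle the ubiquitin-proteasome system is known for breaking down contractile proteins during atrophy.

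As a whole, the 44 genes were higher in the knockout about as often as other genes were. On the deposited scale 17 of 44 (38.6%) passed with a higher level in the knockout (limma on log2(TPM + 1), adjusted p under 0.05), against 36.3% of the 11056 genes tested. None passed as lower, against 2.92% of all tested genes, and 27 did not pass. At an unadjusted p under 0.05 limma called 25 higher and 0 lower, against 46.6% and 4.06% of all tested genes. Their median difference, knockout minus wild type, was 0.41 on the log2(TPM + 1) scale, beside a median of 0.33 over all tested genes. The summed level of the 44 genes was 2503, 2568 and 3025 TPM in the wild-type libraries and 4453, 3148 and 3604 TPM in the knockout libraries, so every knockout library lay above every wild-type library, but knockout library 2 only by a small margin. As a share of the TPM of nuclear genes alone, the sum was 0.618, 0.623 and 0.625% in wild type and 0.841, 0.683 and 0.714% in the knockout.

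Since most genes were higher on the deposited scale, the libraries were also rescaled by a trimmed mean of log ratios, which sets the bulk of genes level between libraries and moves the median of all tested genes from 0.33 to -0.01. On that scale the median of the 44 genes was 0.01. Psme2 and Psmd8 passed as higher, against 14.2% of all tested genes, and Psma1 passed as lower, against 13.5%. After quantile normalization 6 passed as higher (Psme2, Psmd8, Psmd4, Psmd11, Psma7 and Psmc4), against 12.4% of all genes, and Psmc3ip passed as lower, against 13.1%. On a scale over nuclear genes alone 8 passed as higher, those 6 with Psmd6 and Psmd7, against 23.5% of all genes, and 0 passed as lower, against 6.4%. The 2 genes that passed as higher under all 16 alternative settings tried were Psme2 and Psmd8. The share of all tested genes that did so was not counted.

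**Figure D1:**
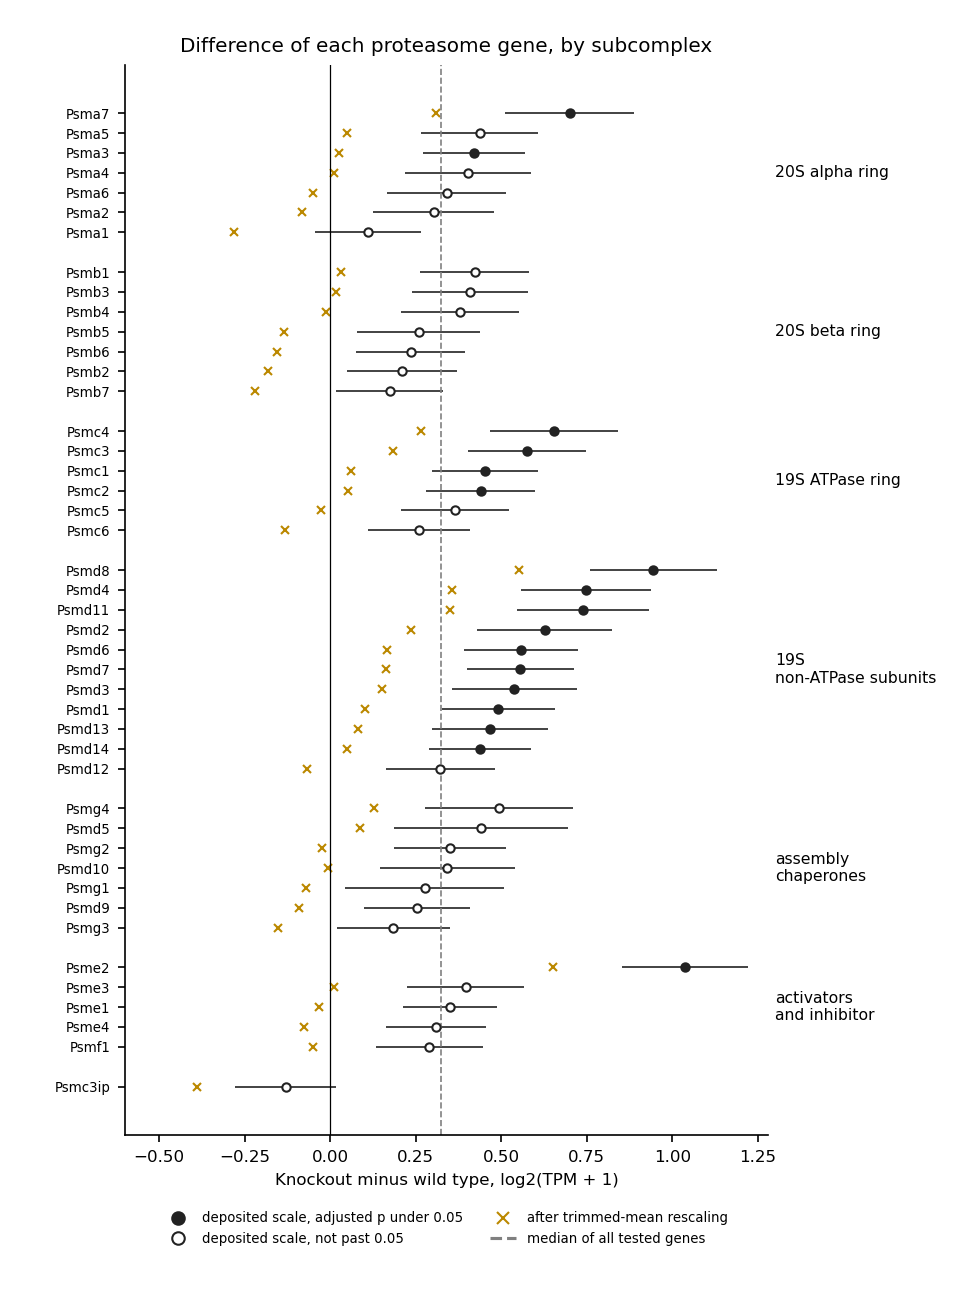
Difference of each of the 44 genes, knockout minus wild type, on the log2(TPM + 1) scale, with its standard error, grouped by subcomplex. Filled circles passed limma with an adjusted p under 0.05 on the deposited scale, crosses mark the same difference after trimmed-mean rescaling, and the dashed line is the median of all tested genes on the deposited scale. The filled circles gather among the 19S genes (14 of 17, against 36.3% of all tested genes), and the beta ring has none. After rescaling 1 of the 17 genes of the 19S particle passed as higher, against 14.2% of all tested genes. The median of the beta ring then turns from 0.26 to -0.13.

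Promoter sequence is shown for 5 genes that span this range: Psmd8 and Psme2, with the largest differences, Psmd4, the ubiquitin receptor, Psma1, lower after rescaling, and Psmb5, a catalytic subunit. Each is the 150 bases before the RefSeq start of the gene (GRCm38.p6), all 5 on the minus strand, printed 5′ to 3′, with motif matches in capitals. The windows are chr7:29180674-29180823 for Psmd8, chr14:55591102-55591251 for the more distal of the start sites listed for Psme2, chr3:95042615-95042764 for Psmd4, chr7:114276117-114276266 for Psma1 and chr14:54617996-54618145 for Psmb5.
Psmd8: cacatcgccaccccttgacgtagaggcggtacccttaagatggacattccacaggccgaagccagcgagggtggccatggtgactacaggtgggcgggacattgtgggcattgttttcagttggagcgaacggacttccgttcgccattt
Psme2: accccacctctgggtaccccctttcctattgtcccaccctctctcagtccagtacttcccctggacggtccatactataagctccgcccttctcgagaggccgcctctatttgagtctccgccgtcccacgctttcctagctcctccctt
Psmd4: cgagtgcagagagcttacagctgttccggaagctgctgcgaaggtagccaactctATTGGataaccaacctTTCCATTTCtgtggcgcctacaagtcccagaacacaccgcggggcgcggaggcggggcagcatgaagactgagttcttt
Psma1: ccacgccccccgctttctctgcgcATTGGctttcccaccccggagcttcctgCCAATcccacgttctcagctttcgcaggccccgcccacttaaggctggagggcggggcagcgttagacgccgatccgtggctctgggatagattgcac
Psmb5: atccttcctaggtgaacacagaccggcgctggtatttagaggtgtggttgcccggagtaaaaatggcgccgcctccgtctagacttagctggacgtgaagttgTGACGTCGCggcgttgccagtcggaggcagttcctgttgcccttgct

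The motifs searched, on both strands, were the core of the antioxidant response element (TGACNNNGC), which the proteasome regulator NFE2L1 is known to bind with its partners, the NF-Y box (CCAAT) and the core of the interferon response element (GAAANNGAA). No match of one overlaps a match of another in the sequences shown. Psmb5 held 1 antioxidant response element core, Psma1 held 2 NF-Y boxes, 1 of them on the opposite strand, and Psmd4 held 1 NF-Y box and 1 interferon response element core, both on the opposite strand. The windows shown for Psmd8 and Psme2 held none of these letters. Over the RefSeq windows from 250 bases before to 50 bases after the start, found for 37 of the 44 genes with 40 promoters, the antioxidant response element core was in 6 (15%), against 12.4% of all 32851 promoters of the table. Those 6 belonged to Psmb5, Psmb6, Psmc6, Psmd12, Psmd9 and Psme4. The NF-Y box was in 13 of 40 (32.5%), against 37.4% of all promoters, and 5 of the 13 belonged to alpha ring genes (Psma1, Psma2, Psma3, Psma6 and Psma7). The interferon response element core was in 7 of 40 (17.5%), against 8.56% of all promoters, with Psme1 among the 7 and Psme2 not. A match is a description of the letters and not a shown binding site.

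The 19S non-ATPase subunits held most of the genes that passed. Of 11 genes, 10 were higher in the knockout on the deposited scale, all but Psmd12, against 36.3% of all tested genes. The median difference of the 11 was 0.56. In all 11 every knockout library lay above every wild-type library, a separation that 48.7% of all tested genes showed. Psmd8, a lid subunit (chr7:29174188-29180701, minus strand), was at 102, 103 and 125 TPM in wild type and at 270, 169 and 209 TPM in the knockout. Its lowest knockout library stood well clear of its highest wild-type library, the means differed 1.96-fold, and the difference was 0.94 with a standard error of 0.18 (adjusted p = 0.0024). After trimmed-mean rescaling it was 0.55 (adjusted p = 0.0098, with a range of 0.00041 to 0.033 over the 16 alternatives).

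Psmd4, the subunit that binds ubiquitin chains for the particle, was at 81.0, 89.7 and 98.4 TPM in wild type and at 199, 118 and 146 TPM in the knockout. The groups did not overlap, and the difference was 0.75 with a standard error of 0.19 (adjusted p = 0.010). Psmd11, a lid subunit, was at 42.6, 41.1 and 53.5 TPM in wild type and at 95.9, 57.7 and 80.6 TPM in the knockout, a difference of 0.74 (adjusted p = 0.012) in which knockout library 2 came within a few TPM of wild-type library 3. Psmd4 and Psmd11 each passed under 14 of the 16 alternatives, a count that was not made for all tested genes. Adjusted p-values ran from 0.0020 to 0.089 for Psmd4 and from 0.0014 to 0.13 for Psmd11.

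Psmd14, the deubiquitinase of the lid, was at 39.1, 37.9 and 41.5 TPM in wild type and at 62.3, 53.1 and 47.1 TPM in the knockout. Its groups did not overlap and its difference of 0.44 passed (adjusted p = 0.037), but after trimmed-mean rescaling it was 0.05. The lid partner of Psmd14, Psmd7, differed by 0.56 (adjusted p = 0.017). The large scaffold subunits Psmd1 and Psmd2 differed by 0.49 and 0.63. Psmd12, the lid subunit that did not pass, differed by 0.32 (adjusted p = 0.12), and its lowest knockout value of 76.6 TPM was next to its highest wild-type value of 76.5 TPM. After trimmed-mean rescaling the median of these 11 genes was 0.16, and Psmd8 alone passed, as higher, against 14.2% of all tested genes. On that scale 5 of 11 (Psmd2, Psmd4, Psmd6, Psmd7 and Psmd8) kept every knockout library above every wild-type library, against 21.4% of all tested genes.

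In the ATPase ring 4 of 6 genes, Psmc1 to Psmc4, passed as higher, against 36.3% of all tested genes. The median difference of the ring was 0.45, and 0.06 after trimmed-mean rescaling. Psmc4 was at 39.2, 39.2 and 46.8 TPM in wild type and at 88.1, 54.6 and 59.9 TPM in the knockout, a difference of 0.65 (adjusted p = 0.017). Psmc3, the most abundant of the ring per length, was at 119, 95.3 and 116 TPM in wild type and at 202, 139 and 157 TPM in the knockout. Its difference was 0.58 (adjusted p = 0.022), and its exons overlap those of Slc39a13 on the opposite strand by up to 147 bases. Psmc1 was at 84.9, 86.8 and 91.9 TPM in wild type and at 142, 103 and 120 TPM in the knockout, a difference of 0.45 (adjusted p = 0.037). In these 4 genes every knockout library lay above every wild-type library, as in 48.7% of all tested genes. Psmc5 (0.37) and Psmc6 (0.26) did not pass, and their groups overlapped. No ATPase gene passed after trimmed-mean rescaling, against 14.2% of all tested genes as higher and 13.5% as lower.

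In the alpha ring of the core 2 of 7 genes passed as higher, Psma7 and Psma3, against 36.3% of all tested genes. The median difference of the ring was 0.40, or 0.01 after trimmed-mean rescaling. Psma7 was at 73.2, 80.3 and 96.0 TPM in wild type and at 169, 106 and 138 TPM in the knockout. Its groups did not overlap, and the difference was 0.70 with a standard error of 0.19 (adjusted p = 0.013). Psma3, the most abundant alpha gene per length, was at 128, 141 and 156 TPM in wild type and at 210, 174 and 185 TPM in the knockout, a smaller separation of 0.42 (adjusted p = 0.043). Psma5 was at 38.7, 44.3 and 56.0 TPM in wild type and at 70.1, 54.6 and 63.3 TPM in the knockout, which overlap.

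Psma1 had the smallest difference of the core genes. It was at 75.4, 79.2 and 97.8 TPM in wild type and at 98.6, 82.1 and 91.3 TPM in the knockout, so the groups overlapped, with a difference of 0.11 (adjusted p = 0.57). After trimmed-mean rescaling its values were 89.5, 97.2 and 101 in wild type and 77.8, 78.2 and 80.6 in the knockout. The order of the groups turned, they no longer overlapped, and the difference was -0.28 (adjusted p = 0.046, with a range of 0.046 to 0.97 over the 16 alternatives).

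None of the 7 beta ring genes passed, against 36.3% of all tested genes as higher. On the deposited scale, where the median of all tested genes was 0.33, 43 of the 44 genes had a positive difference, these 7 among them. After trimmed-mean rescaling 24 of the 44 did. At an unadjusted p under 0.05 limma called 3 of the 7 higher, where 46.6% of all tested genes were. Their median difference was 0.26, and -0.13 after trimmed-mean rescaling. Psmb5, the chymotrypsin-like catalytic subunit, was at 90.7, 99.8 and 125 TPM in wild type and at 152, 105 and 122 TPM in the knockout (difference 0.26, adjusted p = 0.25). Psmb6, the caspase-like subunit, was at 106, 113 and 138 TPM in wild type and at 157, 123 and 141 TPM in the knockout (0.24, adjusted p = 0.24). Psmb7, the trypsin-like subunit and the most abundant of the 44 genes per length, was at 156, 151 and 191 TPM in wild type and at 212, 175 and 174 TPM in the knockout (0.17, adjusted p = 0.38).

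In these 3 catalytic genes wild-type library 3 lay above knockout library 2, and in Psmb5 and Psmb7 also above knockout library 3. Among the structural beta genes Psmb1 came nearest to the threshold (0.42, adjusted p = 0.054), at 73.6, 69.3 and 78.6 TPM in wild type and at 116, 82.4 and 102 TPM in the knockout, and its groups did not overlap. Psmb3 was at 96.4, 101 and 120.0 TPM in wild type and at 168, 117 and 141 TPM in the knockout (0.41, adjusted p = 0.073). Psmb4 was at 89.7, 87.7 and 102 TPM in wild type and at 151, 99.0 and 118 TPM in the knockout (0.38, adjusted p = 0.098). In both, knockout library 2 lay just below wild-type library 3. Psmb2 differed by 0.21, and its groups overlapped too. GENCODE M21 lists 4 pseudogenes of Psmb5, Psmb6 and Psmb7, and how reads shared with such copies were divided is not given in the sources used here.

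**Figure D2:**
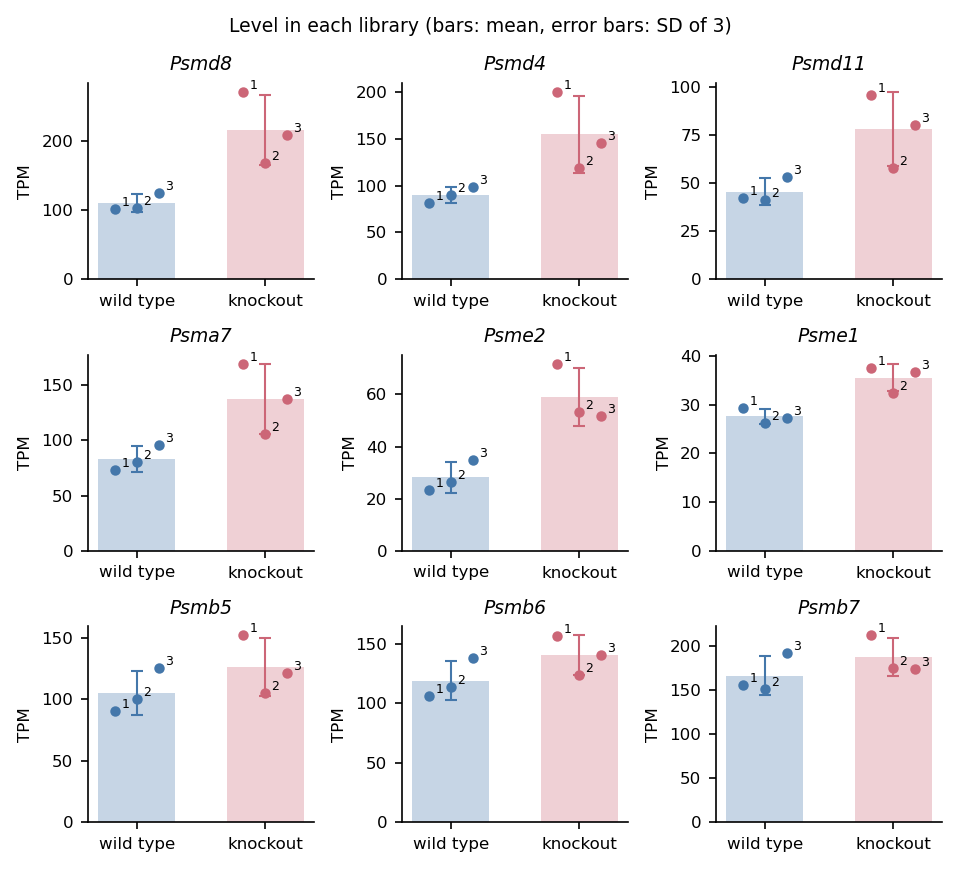
TPM of 9 proteasome genes in each library on the deposited scale, with bars for the mean, error bars for the SD of 3 libraries, and the library number beside each point. In the 19S genes Psmd8, Psmd4 and Psmd11, in Psma7 and in the PA28 genes Psme2 and Psme1 the knockout points all lie above the wild-type points, while the catalytic genes Psmb5, Psmb6 and Psmb7 overlap.

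The balance between the 19S cap and the 20S core was read within each library, where any factor that scales the whole library cancels. The summed TPM of the 17 genes of the 19S particle over that of the 14 genes of the 20S core was 0.885, 0.846 and 0.808 in wild type and 1.04, 0.960 and 0.984 in the knockout. Every knockout ratio lay above every wild-type ratio, with means of 0.846 ± 0.0386 and 0.995 ± 0.0426 (SD, n = 3 each), and the ratio was examined after the counts by subcomplex were known, so no test is given. Of the summed TPM of the 44 genes, the non-ATPase subunits took 27.0 ± 0.489% in wild type and 30.5 ± 1.22% in the knockout, and the beta ring 27.3 ± 0.504% and 24.3 ± 0.699%. The alpha ring took 23.1 ± 0.557% and 22.3 ± 0.197%, and the ATPase ring 15.7 ± 0.636% and 15.8 ± 0.130%, with groups that nearly touched in the alpha ring and overlapped in the ATPase ring.

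Gene by gene, 9 of the 44 took a larger share of the summed TPM in every knockout library than in any wild-type library, against 17.3% of all tested genes set over the same sum. These were Psmd2, Psmd4, Psmd6, Psmd7, Psmd8, Psmd11, Psma7, Psmc4 and Psme2. A smaller share in every knockout library was found for 10, against 24.1% of all tested genes: Psma1, Psma6, Psmb2, Psmb5, Psmb6, Psmb7, Psmc5, Psmc6, Psmd12 and Psmf1. Both counts were near these shares of all tested genes. Where some members take more of a fixed sum, others must take less. Both directions occurred within the 19S particle. Psmd8 over Psmd12, a pair picked after their values were seen, went from 1.47, 1.47 and 1.63 in wild type to 2.51, 2.20 and 2.33 in the knockout. Psma7 over Psma1, picked in the same way within the alpha ring, went from 0.971, 1.01 and 0.981 to 1.72, 1.29 and 1.51. On the deposited scale no gene had every knockout library below every wild-type library, against 4.83% of all tested genes, and after trimmed-mean rescaling 4 did (Psma1, Psmb6, Psmb7 and Psmc6), against 22.3%.

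**Figure D3:**
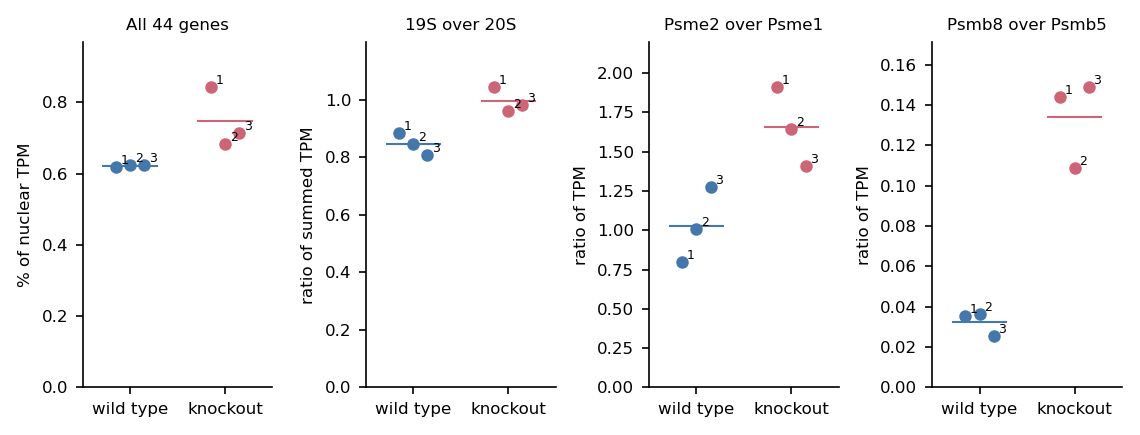
Measures taken within each library, wild type and knockout, with the library number beside each point and a line at the mean of 3: the summed TPM of the 44 genes as a percentage of nuclear TPM, the ratio of summed 19S to summed 20S TPM, the ratio of Psme2 to Psme1, and the ratio of Psmb8 to Psmb5. In all 4 panels every knockout library lies above every wild-type library, with the 19S over 20S ratio at 0.808 to 0.885 in wild type and 0.960 to 1.04 in the knockout.

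Among the activators Psme2, the beta subunit of PA28, had the largest difference of all 44 genes. It was at 23.3, 26.6 and 34.8 TPM in wild type and at 71.7, 53.2 and 51.8 TPM in the knockout, 2.09-fold by the means. All knockout libraries were well above all wild-type libraries, the difference was 1.04 with a standard error of 0.18 (adjusted p = 0.0013), and after trimmed-mean rescaling it was 0.65 (adjusted p = 0.0062, with a range of 0.00013 to 0.016 over the 16 alternatives). Its partner Psme1, the alpha subunit of PA28, which lies 5911 bases away on chromosome 14, was at 29.3, 26.3 and 27.3 TPM in wild type and at 37.6, 32.4 and 36.8 TPM in the knockout. These groups did not overlap either, but the difference of 0.35 did not pass (adjusted p = 0.064) and was -0.03 after rescaling.

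The ratio of Psme2 to Psme1 was 0.795, 1.01 and 1.27 in the wild-type libraries and 1.91, 1.65 and 1.41 in the knockout libraries, without overlap. Both subunits form 1 ring and are known to be induced by interferon gamma, as are the immunoproteasome genes. Psmb8, the inducible counterpart of Psmb5, rose by 2.01 (adjusted p = 2.9e-05), Psmb9, that of Psmb6, by 1.85 (adjusted p = 0.00011) and Psmb10, that of Psmb7, by 0.98 (adjusted p = 0.0015). Psmb8 over Psmb5 was 0.0355, 0.0366 and 0.0256 in wild type and 0.144, 0.109 and 0.149 in the knockout, so the inducible gene remained the lesser of the pair in every library.

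Of the remaining caps none passed, against 36.3% of all tested genes as higher. Psme3, the nuclear PA28 subunit, was at 27.3, 28.1 and 29.7 TPM in wild type and at 48.7, 31.7 and 34.5 TPM in the knockout (difference 0.40, adjusted p = 0.084). Psme4, which encodes PA200, was at 30.9, 34.8 and 34.3 TPM in wild type and at 47.5, 39.6 and 38.1 TPM in the knockout (0.31, adjusted p = 0.11). In both genes all knockout libraries were above all wild-type libraries, as in 48.7% of all tested genes, with knockout library 1 of Psme3 far above the rest. Psmf1, the PI31 inhibitor, was at 5.11, 5.04 and 5.69 TPM in wild type and at 8.16, 5.58 and 6.50 TPM in the knockout (0.29, adjusted p = 0.15), which overlap. After trimmed-mean rescaling Psme4 and Psmf1 turned to -0.08 and -0.05.

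None of the 7 assembly chaperone genes passed limma, against 36.3% of all tested genes as higher. At an unadjusted p under 0.05 limma called 1 higher, as it did 46.6% of all tested genes. The groups of each overlapped, where 48.7% of all tested genes had every knockout library above every wild-type library. The chaperone genes were the least abundant of the proteasome genes per length apart from Psmf1, with means from 5.97 TPM (Psmg3) to 19.02 TPM (Psmg2), where the core subunits had means from 36.9 TPM (Psma2) to 177 TPM (Psmb7). Psmg4, a chaperone of the core, was at 8.73, 10.3 and 12.4 TPM in wild type and at 16.4, 10.3 and 19.9 TPM in the knockout (0.49, adjusted p = 0.088). Psmd5, a chaperone of the ATPase base, was at 6.11, 6.22 and 13.6 TPM in wild type and at 11.9, 9.25 and 13.2 TPM in the knockout, with wild-type library 3 highest of all 6. Psmg2, another core chaperone, was at 13.9, 16.4 and 19.5 TPM in wild type and at 24.2, 18.5 and 21.5 TPM in the knockout. Their median difference was 0.34, and -0.02 after trimmed-mean rescaling. Psmc3ip, which is no proteasome gene, was at 1.97, 2.23 and 1.93 TPM in wild type and at 1.69, 1.42 and 2.30 TPM in the knockout, and its exons overlap those of Mlx on the opposite strand.

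**Figure D4:**
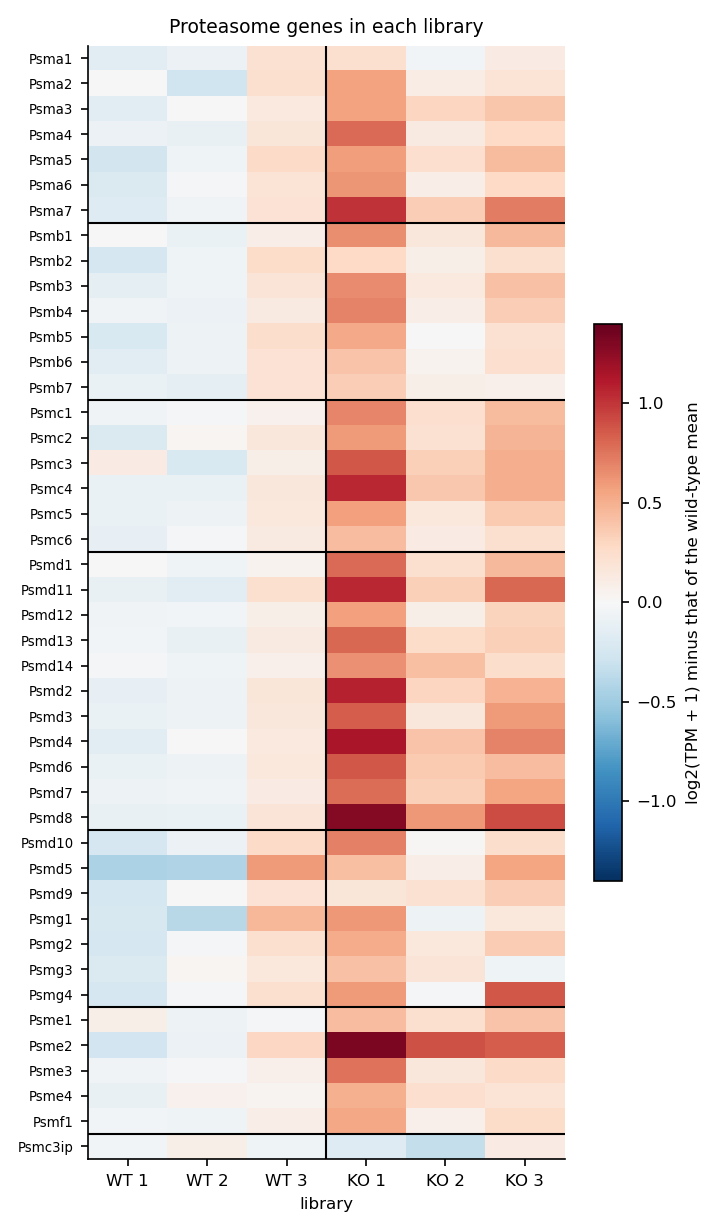
Each gene in each library on the deposited scale, as log2(TPM + 1) minus log2(m + 1), where m is the mean TPM of the 3 wild-type libraries. Genes are ordered by subcomplex, with red above and blue below that level. The knockout library 1 column is the darkest red in nearly every row, and within wild type the column of library 3 is the reddest.

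On the deposited scale, which keeps any shift common to a library, the members tended to move together across libraries. Knockout library 1 was the highest of the 6 libraries in 40 of the 44 genes (90.9%), and in 52.1% of all tested genes. Wild-type library 3 was the highest wild-type library in 40 (90.9%), and in 69.2% of all tested genes, and knockout library 2 the lowest knockout library in 38 (86.4%), and in 54.4% of all tested genes. After trimmed-mean rescaling this order changed in some members. Knockout library 1 stayed the highest in Psmd8 but was the lowest of the 6 libraries in Psma1 and Psmb2. Knockout library 1 had the lowest mitochondrial share, 39.0%, and wild-type library 3 the lowest of the wild type, 43.0%. The part of that share in the members' values was not tested. Without knockout library 1, 4 members passed as higher, Psme2, Psmd8, Psmd4 and Psmd11 (9.09%), against 22.5% of all tested genes, and the median difference was 0.29. The count was 6 when wild-type library 1 was left out (24.5% of all tested genes), 5 when wild-type library 2 was (23.0%) and 10 when knockout library 3 was (23.7%). It was 24 when knockout library 2 was left out (38.8%) and 19 when wild-type library 3 was (37.8%), the libraries nearest to the other group. With both wild-type library 2 and knockout library 1 left out, only Psme2 and Psmd8 passed, against 16.0% of all tested genes.

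Genes that work with the proteasome were read from a list of 30, of which 29 were in the files. On the deposited scale 6 of the 29 passed as higher, against 36.3% of all tested genes, among them Psmb8, Psmb9, Psmb10, Adrm1 and Ubb. As lower 1 passed (Zfand5), against 2.92%. After trimmed-mean rescaling 3 passed as higher, the immunoproteasome genes, against 14.2% of all tested genes, and 6 as lower, against 13.5%. Adrm1, another ubiquitin receptor of the 19S particle, was at 33.7, 32.0 and 38.6 TPM in wild type and at 59.0, 45.0 and 60.7 TPM in the knockout, without overlap (0.64, adjusted p = 0.0097). Sem1, the smallest lid subunit, was at 56.5, 45.5 and 56.7 TPM in wild type and at 51.7, 55.8 and 45.6 TPM in the knockout, with no separation (-0.05, adjusted p = 0.81). After trimmed-mean rescaling Adrm1 no longer passed and Sem1 passed as lower (-0.44, adjusted p = 0.039).

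Ubb, a polyubiquitin gene, differed by 0.48 (adjusted p = 0.036). Zfand5, a zinc finger protein that activates the proteasome, was at 146, 185 and 193 TPM in wild type and at 121, 144 and 119 TPM in the knockout (-0.44, adjusted p = 0.047), so all knockout libraries were lower, library 2 by a small margin. Pomp, the maturation factor of the core (0.35, adjusted p = 0.065), Ubqln2, which carries ubiquitinated proteins to the proteasome (0.37, adjusted p = 0.051), Rps27a, a fusion of ubiquitin with a ribosomal protein (0.41, adjusted p = 0.093), Ngly1, which deglycosylates NFE2L1 (0.43, adjusted p = 0.050), and the segregase Vcp (0.29, adjusted p = 0.15) did not pass. Nfe2l1, the transcription factor of proteasome genes, was named after its values were seen: it was at 345, 255 and 303 TPM in wild type and at 342, 328 and 268 TPM in the knockout, which overlap (0.06, adjusted p = 0.80).

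Markers of other cells also differed between the groups. All 12 macrophage markers passed as higher, with a summed level of 42.1 to 50.9 TPM in wild type and 212 to 262 TPM in the knockout, as did all 9 markers of fibroblasts and fibro-adipogenic progenitors (304 to 331 and 905 to 964 TPM). Of 6 endothelial markers 5 were higher and 1, Kdr, lower (78.7 to 87.0 and 162 to 182 TPM), and all 8 interferon response genes were higher (29.8 to 34.7 and 241 to 383 TPM). Of 11 muscle fibre markers Des and Myh4 were higher and 9 did not pass, with sums of 38998 to 43041 TPM in wild type and 42867 to 51695 TPM in the knockout. After trimmed-mean rescaling all 12 macrophage and all 8 interferon response genes still passed as higher, as did 8 of 9 fibroblast markers (not Col1a2) and 4 of 6 endothelial markers (not Cdh5, with Kdr again lower). Of the fibre markers only Des was then higher, Mb and Tnnt1 were lower, and Myh4 did not pass. Fibre genes such as Acta1 were abundant in every library, and none of the markers of any list was at 0 in any library. Proteasome genes are expressed in all of these cells, the part of the cell mixture in the differences above was not tested, and in bulk tissue more cells of a type and more RNA per cell cannot be told apart.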

How the data were processed

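Polyadenylated RNA of 12 samples was sequenced, per the labels' protocols after TRIzol extraction and NEBNext Ultra library preparation. The submitters' processing notes name STAR 2.5.3a and kallisto 0.43.0 as tools and GRCm38 and mm10 as builds, but not the step each served. The authors deposited 1 value per gene and sample, whose unit is not given in the sources used here. These deposited values were read as TPM, that is as normalized by the authors for length and library total, because they are fractional and sum to 843194 to 872482 per library. Complete TPM values have the same fixed total in every library, which these sums fall short of, so the unit remains uncertain. TPM keeps no read depth, so no counting interval is given.

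The samples were reduced to 6 libraries (above), and genes missing from a library were set to 0. Every gene reaching 1 TPM in 3 or more libraries was fitted with limma 3.58.1 (R 4.3.3) on log2(TPM + 1), which understates changes of low genes, with an intensity trend, 4 residual degrees of freedom and two-sided Benjamini-Hochberg adjustment over all tested genes at 0.05. The fit was also run on simulated data with independent noise in each gene and no shift common to a library. That run does not cover the shift of most genes seen here. Trimmed-mean rescaling trimmed 30% of ratios and 5% of levels. Other alternatives were no trend, quantile normalization, a nuclear-only scale, a filter of 10 TPM or none, 0.1 or 5 TPM as pseudocount, the replicate number as a block, each library left out, and wild-type library 2 left out together with knockout library 1. Positions and exon overlaps come from GENCODE M21, where 99.5% of identifiers were found. Python 3.11.15 served for tables (pandas 2.3.3), arrays (numpy 2.4.6) and plots (matplotlib 3.10.9).

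The members, the lists of associated and marker genes and the subcomplexes were chosen with earlier results of these data known. Values in every library were given for the 3 genes of each subcomplex with the largest absolute difference, its most abundant gene, Psmb5, Psmb6, Psmb7, Psmd4, Psmd14, the Psme genes and Psmf1, and for genes whose call turned on rescaling, and of each list of associated genes the 2 with the smallest adjusted p were named, except 1 that is not reported here.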

Additional observations from a re-analysis of the deposited data

How the results depend on the processing

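The number of proteasome genes passing as higher was 17 on the deposited scale and 2 after trimmed-mean rescaling, 6 after quantile normalization, 8 on the nuclear-only scale, 9 without a filter and 2 with wild-type library 2 and knockout library 1 both left out. Leaving out 1 library gave 4 to 24. With the replicate number as a block it was 13. Of all tested genes, 4047 of 11056 passed as higher with the block and 3610 of 18254 without a filter. The deviations of same-numbered libraries correlated by only 0.03, -0.01 and 0.04. Such values show no pairing by number but, with 3 libraries per group, cannot exclude it. What the numbers stand for is not given in the sources used here. Genes passing as lower were 0, and 1 after trimmed-mean rescaling and after quantile normalization. The median was 0.41, and 0.015, 0.13 and 0.21 on the 3 other scales in that order, 0.26 with wild-type 2 and knockout 1 both left out and 0.29 to 0.52 with 1 left out. Over all tested genes, those higher went from 4016 to 1561 (trimmed-mean), 1373 (quantile), 1616 (10 TPM filter), 1673 (both libraries left out) and 2379 to 4150 (1 left out), and those lower went from 323 to 1479, 1450, 777 (nuclear-only), 213 (both left out) and 219 to 346. Other counts stayed within 1.5 times, and the cause of these shifts was not tested.

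Of 698 values for single proteasome genes, 545 kept direction and side of the threshold, 109 no longer passed, 14 newly passed and 30 turned sign. After trimmed-mean rescaling the sign turned for Psma1 (-0.28), Psma2 (-0.081), Psma6 (-0.051), Psmb2 (-0.18), Psmb4 (-0.013), Psmb5 (-0.13), Psmb6 (-0.16), Psmb7 (-0.22), Psmc5 (-0.025), Psmc6 (-0.13), Psmd10 (-0.0052), Psmd12 (-0.068), Psmd9 (-0.092), Psme1 (-0.033), Psme4 (-0.075), Psmf1 (-0.049), Psmg1 (-0.071), Psmg2 (-0.024), Psmg3 (-0.15), Pomp (-0.038), Vcp (-0.10) and Nfe2l1 (-0.34). After quantile normalization it turned for Psma1 (-0.16), Psmb2 (-0.064), Psmb7 (-0.021), Psmd10 (-0.056), Psmd9 (-0.14), Psmf1 (-0.12), Psmg1 (-0.12), Psmg3 (-0.22), Ubqln2 (-0.0296) and Nfe2l1 (-0.11), and on the nuclear-only scale for Psma1 (-0.088), Psmb7 (-0.027) and Nfe2l1 (-0.15). With both of these libraries left out, wild-type 2 and knockout 1, it turned for Psmg1 (-0.083) and Nfe2l1 (-0.13). With 1 library left out Sem1, at -0.05, reached 0.029 at most, and Nfe2l1, at 0.06, ran from -0.058 to 0.16. Psma1 alone of these passed in the turned direction, after trimmed-mean rescaling.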
